A study of Homo sapiens with 18 samples.

Results

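Integrins and laminins, the adhesion receptors of the cell surface and the trimeric basement membrane proteins that several of them bind, were followed at the RNA level in thyroid carcinoma cells after loss of Dicer1. The members are 35 genes of the 58302 in the table, chosen by gene name: 17 integrin alpha chains, 8 integrin beta chains and 10 laminin chains. A gene was counted as measured when its normalised read count averaged at least 10 over the 18 libraries, which held for 25 genes, 10 of the alpha chains, 7 of the beta chains and 8 of the laminin chains. The remaining 10 members, ITGA2B, ITGA4, ITGA7, ITGA8, ITGA9, ITGAL, ITGAM, ITGB4, LAMA4 and LAMC3, are given only as not measured.

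The cells were TPC1, a line from a human papillary thyroid carcinoma, and D11, a Dicer1 (+/-) line obtained from TPC1 by CRISPR-Cas9. D11 is 1 clone, so that what belongs to the lost allele and what belongs to the clone cannot be told apart. Cells of each line were left non-transfected (NT), or received 5 nM of a negative control siRNA (NC) or of a Dicer1 siRNA (siDicer), and RNA was taken at day 4. Each of the 6 groups had 3 libraries, and NT and NC together formed the 6 control libraries of a line. For 12 of the 18 samples the title names another group than the description does, and the genotype field (wt, DICER (+/-) or knock down) runs with the titles. The descriptions, which equal the column names of the table, were followed here. The methods of the study say in general that experiments were repeated independently. The labels do not say whether these libraries came from separate cultures, and if they did not, p-values measure a spread that may be technical.

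Integrins are obligate pairs of an alpha and a beta chain. The beta1 chain pairs with the collagen-binding alpha1, alpha2, alpha10 and alpha11 chains, the laminin-binding alpha3 and alpha6 chains, and the fibronectin receptor chain alpha5, while alphaV pairs with beta1, beta3, beta5, beta6 or beta8 and recognises RGD sequences in fibronectin, vitronectin and latent TGF-beta. A laminin is a cross-shaped trimer of an alpha, a beta and a gamma chain. Dicer cuts precursor hairpins into mature miRNAs, which bind mRNAs mostly in the 3′ UTR through a seed at their bases 2 to 8.

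Because Dicer makes miRNAs, the sequences that could connect it with these mRNAs are shown first. The 3′ UTRs of the 25 measured members were searched for the 7 bases complementary to the seeds of 10 miRNA families. No miRNA level was measured here, and a match is a run of letters, not a tested site. Below, capitals mark the seed in a mature miRNA (RefSeq, GRCh38.p14) and the complementary run in an mRNA, all written 5′ to 3′. The sites shown are among those of let-7, miR-25/92 and miR-31 in the 4 members called in either line, and the miR-29 site of LAMC1, the most abundant laminin chain.
hsa-let-7a-5p: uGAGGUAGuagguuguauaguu
ITGA1, chr5:52953986-52954008, plus strand: agactcagagtcagcCTACCTCt
ITGA11, chr15:68299763-68299785, minus strand: tcacaagataaattcCTACCTCc
hsa-miR-92a-3p: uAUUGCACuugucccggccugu
ITGAV, chr2:186678720-186678742, plus strand: gttatacctatttttGTGCAATt
ITGAV, chr2:186680453-186680475, plus strand: tgtcattgttctcaaGTGCAATa
ITGA6, chr2:172504725-172504747, plus strand: tgtcttaaactaaatGTGCAATa
hsa-miR-31-5p: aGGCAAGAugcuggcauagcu
ITGAV, chr2:186678855-186678877, plus strand: aatgattgaaatttaTCTTGCCa
ITGA11, chr15:68298334-68298356, minus strand: caacatgcaagagtaTCTTGCCa
hsa-miR-29a-3p: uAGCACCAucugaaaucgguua
LAMC1, chr1:183144238-183144260, plus strand: tattatctgacacacTGGTGCTa

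The run CTACCTC stood in the 3′ UTRs of 4 of the 25 measured members (ITGA1, ITGA11, ITGB3 and ITGB8) and in 11.1% of the 13011 UTRs searched. GTGCAAT stood in 7 members, namely ITGA5, ITGA6, ITGAV, ITGAX, ITGB3, ITGB6 and ITGB8, and in 12.6% of all UTRs. TCTTGCC stood in 3 members and in 14.3% of UTRs, and TGGTGCT in 4 members (ITGA2, ITGB1, LAMA2 and LAMC1) and in 16.3%. The runs of miR-17, miR-21, miR-30, miR-146, miR-200b and miR-221 stood in 6, 5, 7, 3, 6 and 2 members, and in 24.7%, 9.75%, 18%, 12.4%, 19.1% and 9.43% of all UTRs. Long UTRs hold more such runs by length alone, and the UTRs of ITGA1 (6758 bases), ITGA11 (6527), ITGAV (3609) and ITGA6 (2391) are longer than the median of 1324 bases. ITGA1 held runs of 5 of the 10 families, ITGA11 of 4, ITGAV of 2 and ITGA6, which was called lower in TPC1, of 2. The miR-25/92 run was among those of both ITGAV and ITGA6. The part of any run in the changes of these genes was not tested.

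Libraries held 11.3 to 23.2 M reads, and values are normalised read counts per 20 M reads, in which 1 read was worth 0.861 to 1.77. In the groups set by the descriptions, DICER1, the targeted gene, was at 1397 to 2492 in the TPC1 control libraries and 246 to 395 in siDicer. The D11 ranges were 655 to 1536 and 277 to 451. Among the controls, DICER1 in NC lay above NT without overlap in both lines. NT was at 1397 to 1582 and NC at 1901 to 2492 in TPC1, and at 655 to 1157 and 1407 to 1536 in D11. Of 7 thyroid follicular markers, PAX8, FOXE1 and TG were measured, while TSHR, NKX2-1 and SLC5A5 were at 0 to 2 in every library. Of 6 epithelial markers, KRT7, KRT8 and KRT18 were measured, and CDH1, EPCAM and KRT19 did not pass 8. Of 4 endothelial and 4 platelet markers, TEK and GP1BA alone entered a test, and of 6 leukocyte markers only CD68 and LCP1 were measured. None of the genes of these 5 lists was called with siDicer, except KRT7 in TPC1 (0.82).

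The levels were compared first, per kb of the canonical transcript, so that genes of different length can be set side by side. ITGB1, the shared partner of most alpha chains, was the most abundant integrin chain, at 6933 ± 517 (SD, n = 6) per kb in the TPC1 control group. ITGA3, a laminin receptor chain, followed at 6538 ± 1740. These neighbours did not differ beyond their spread, and ITGB1 was above ITGA3 in 4 of 6 control libraries of each line. In D11 controls the same chains were at 6685 ± 936 and 6163 ± 1275 per kb.

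Among alpha chains, ITGA3 made up 66.6% ± 5.21 of the summed alpha chain level per kb in TPC1 controls and 69.3% ± 4.54 in D11 controls (SD, n = 6 each). ITGA5, the fibronectin receptor chain, came next at 20.1% in TPC1 and 17.1% in D11, followed by ITGAV at 5.57% and 5.17%. ITGA6 and ITGA2, which bind laminin and collagen, stood at 313 ± 24.9 and 238 ± 56.8 per kb in TPC1 controls. The ranges of ITGA6 and ITGA2 overlapped in both lines, while ITGA6 was the higher in each of the 6 control libraries of a line. ITGAE was at 109 ± 8.83, ITGA1 at 43.8 ± 7.16, ITGAX at 21.2 ± 20.4, ITGA11 at 14.0 ± 1.81 and ITGA10 at 3.22 ± 1.49. Collagen receptors other than ITGA2 were thus minor transcripts.

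Among beta chains, ITGB5 and ITGB3, partners of alphaV, were at 1229 ± 340 and 917 ± 211 per kb in TPC1 controls. Their ranges overlapped, but within a library ITGB5 was above ITGB3 in 6 of 6 control libraries of each line, by 1.18 to 1.52 times in TPC1 and 1.14 to 2.15 times in D11. ITGB2, ITGB8, ITGB7 and ITGB6 lay between 30.9 and 2.44. ITGB4, the hemidesmosome partner of alpha6, was not measured, with normalised read counts of 1 to 11. The beta1 chain is the other partner of alpha6, and its gene was abundant in every library.

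Among laminin chains, LAMC1 (3299 ± 226 per kb in TPC1 controls) and LAMB3 (2651 ± 346) led, followed by LAMB1 (1010 ± 182). LAMB2 (276 ± 22.4) lay with the alpha chain LAMA5 (285 ± 109), which was above it in 3 of 6 control libraries of each line. Of the other alpha chains, LAMA3 was at 109 ± 21.5, LAMA2 at 11.5 ± 1.25 and LAMA1 at 1.23 ± 0.833. Of the summed laminin alpha level, LAMA5 held 68.9% in TPC1 controls and 72.9% in D11 controls. These levels rest on the length of 1 canonical transcript per gene, 10651 bases for LAMA3. Which transcript forms were expressed was not measured. A shorter LAMA3 form would raise the level of LAMA3 and lower the LAMA5 share.

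**Figure D1:**
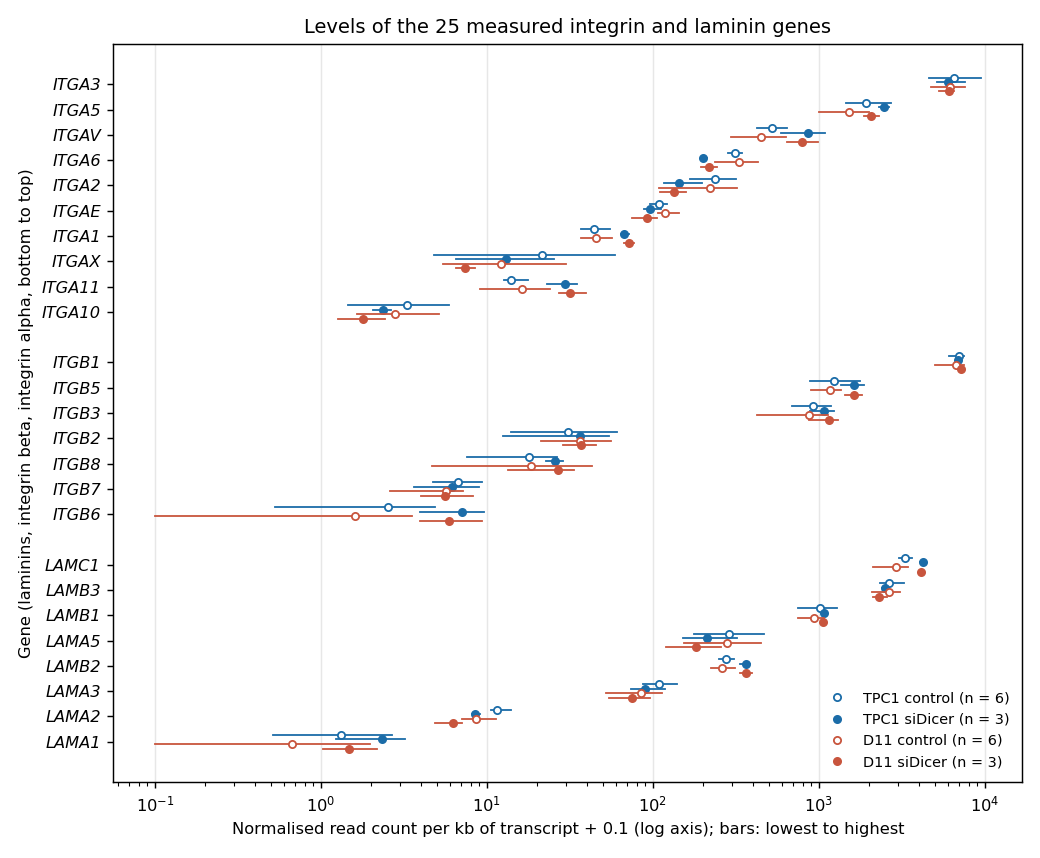
Mean normalised read count per kb of transcript (plus 0.1, log axis) of the 25 measured members, for TPC1 (blue) and D11 (red), control libraries (open, n = 6) and siDicer libraries (filled, n = 3), with bars from the lowest to the highest library. ITGB1 and ITGA3 lead the integrins and LAMC1 and LAMB3 the laminins in all 4 sets of libraries.

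The main comparison set siDicer against control in TPC1. A gene was called when its limma adjusted p over all genes was under 0.05 and its fold change at least 1.5. ITGA11, ITGAV and ITGA1 rose and ITGA6 fell, so that 3 of the 25 measured members (12%) were called higher, against 3.22% of the 18475 genes tested. For lower calls it was 1 member (4%) against 4.16%. Adjusted p-values under 0.05 without the fold limit were reached by 6 members (24%), which adds LAMC1 and LAMB2, against 13.8% of all genes. All genes together gave 594 higher and 769 lower calls, or 827 and 592 with TMM scaling, so the balance of directions depends on the scaling. This fit did not use the replicate number. With that number as a block, ITGA2 was also called lower and ITGB6 higher, beside 781 higher and 1015 lower calls over all genes. In bulk RNA, fewer or more cells of a type and less or more RNA per cell cannot be told apart.

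D11 gave the same 3 higher calls, ITGA11, ITGAV and ITGA1. This is 12% of the 25 measured members against 5.26% of the 18413 genes tested. No member was called lower, against 6.75% of genes. Without the fold limit, 7 members (28%) had an adjusted p under 0.05, against 22.2% of genes. They were the 3 called members with ITGA6, LAMC1, LAMB2 and ITGB5. The median log2 change of the 25 measured members was 0.11 in TPC1 and 0.12 in D11, beside -0.04 for all genes in both.

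By class, the alpha chains split. Of 10 measured alpha chains, 4 had a log2 change above 0 and 6 below in each line, with a median of -0.15 in TPC1 and -0.19 in D11. Of 7 beta chains, 5 were above 0 in TPC1 and 6 in D11, with medians of 0.24 and 0.47 and no call. Of 8 laminin chains, 4 lay above 0 and 4 below in each line, and none was called. The sign was the same in both lines for 24 of the 25 members, as it was for 84.7% of the genes tested in both. The exception was ITGB1, at -0.01 in TPC1 and 0.12 in D11, and its TPC1 sign turned with TMM scaling (0.05) and RLE scaling (0.03). The lines share no library. Deviations from the group means correlated above 0.1 in 22 of 27 pairs of libraries from different lines with the same replicate number. With different numbers it was 4 of 54 pairs. The part of this in the shared signs was not tested.

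**Figure D2:**
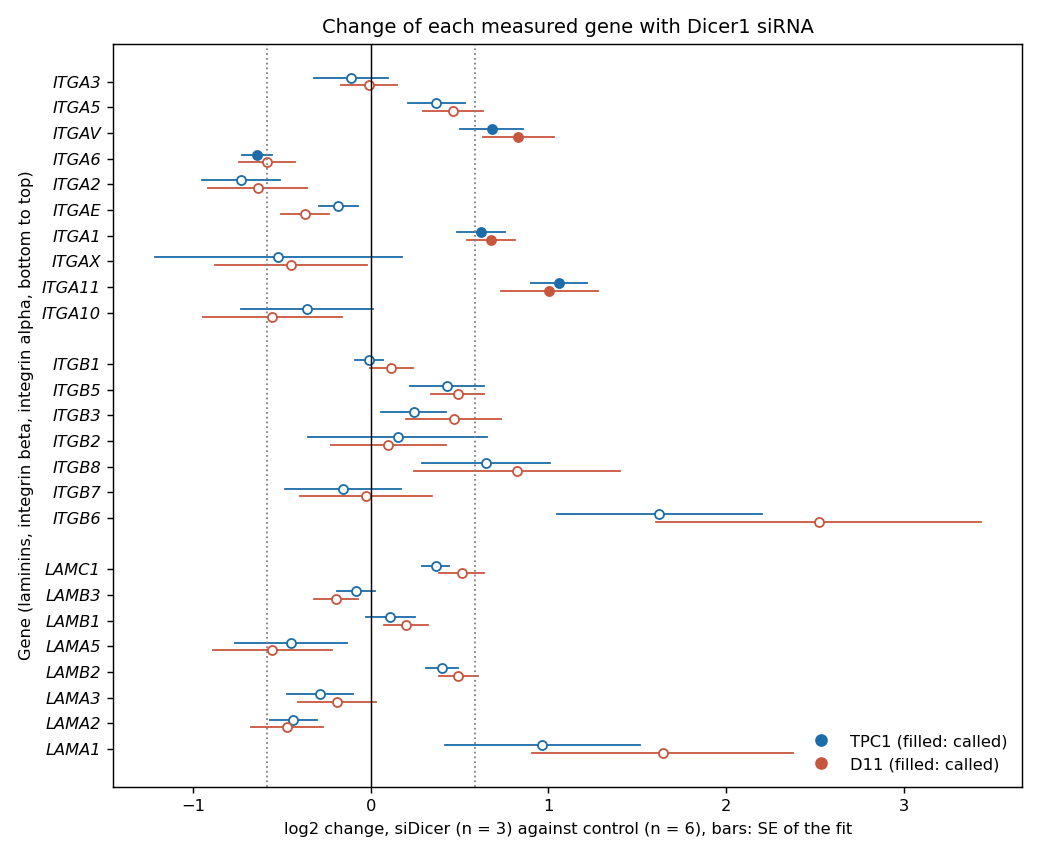
log2 change (siDicer, n = 3, against control, n = 6) of each measured member in TPC1 (blue) and D11 (red), with bars of 1 SE of the limma fit, filled where called and dotted lines at a fold change of 1.5. ITGA11, ITGAV and ITGA1 are filled on the right in both lines and ITGA6 on the left in TPC1, and no other point is filled.

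Collagen-binding alpha chains are described first. ITGA11 (chromosome 15, 68296532 to 68432163, minus strand, GRCh38), which binds fibrillar collagen and is best known from fibroblasts, had in TPC1 normalised read counts of 134, 130 and 140 in NT, 178, 143 and 128 in NC, against 311, 356 and 234 in siDicer. Its D11 values were 91, 193 and 115 in NT, 242, 198 and 151 in NC, against 404, 274 and 283 in siDicer. Every siDicer library was above every control library in both lines. The log2 change was 1.06 (SE 0.16) in TPC1 (limma adjusted p 0.00267) and 1.01 (SE 0.27) in D11 (limma adjusted p 0.0190). The D11 call was lost without siDicer replicate 1 (0.83) or replicate 3 (1.08), and the TPC1 call was kept in each setting. Over all settings the D11 change ran from 0.70 to 1.31.

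ITGA1 (chromosome 5, 52787916 to 52959209, plus strand), which prefers the basement membrane collagen IV, was at 440, 593 and 494 in TPC1 NT, 394, 507 and 394 in NC, against 770, 688 and 692 in siDicer. The D11 values were 396, 609 and 483 in NT, 448, 545 and 440 in NC, against 720, 774 and 825 in siDicer. Again the groups did not overlap in either line. The log2 change was 0.62 (SE 0.14, limma adjusted p 0.0140) in TPC1 and 0.68 (SE 0.13, limma adjusted p 0.00408) in D11. In TPC1 it fell below a call without siDicer replicate 1 (0.57) or 3 (0.64), without NC replicate 1 (0.57) or 3 (0.57), against NT alone (0.50), and with GC content and length trends removed (0.58). The latter setting also ended the D11 call (0.51). PELO lies inside ITGA1 on the same strand, and the handling of shared reads is not stated.

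ITGA2, the other collagen receptor chain of epithelial cells, was lower without a call in either line. Its normalised read counts in TPC1 were 1809, 2050 and 2114 in NT, 1426, 2482 and 1301 in NC, against 907, 1540 and 941 in siDicer, so that siDicer replicate 2 lay within the control range. The log2 change was -0.73 (SE 0.22, limma adjusted p 0.0503), and it was called with a pseudocount of 10 (-0.73), with voom on recovered reads (-0.74), against NT alone (-0.86), and without NC replicate 1 (-0.80), NC replicate 3 (-0.83) or siDicer replicate 2 (-0.98). With the replicate number as a block it was called too. In D11 it was -0.64 (SE 0.28, limma adjusted p 0.122), and called against NC alone (-0.78), with GC content and length trends removed (-0.78) and without NT replicate 1 (-0.82). ITGA10 was a low gene, at 6 to 30 over the 18 libraries, with log2 changes of -0.36 and -0.55 that were not called.

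Laminin-binding chains come next. ITGA6 (chromosome 2, 172427354 to 172506459, plus strand) was at 1765, 1647 and 1748 in TPC1 NT, 1985, 2012 and 1766 in NC, against 1223, 1145 and 1128 in siDicer. All 3 siDicer libraries were below all 6 controls. The log2 change was -0.64 (SE 0.09, limma adjusted p 0.00181), a fold change of 0.64. It kept its call without any single library, and missed the fold limit with TMM scaling (-0.58) and against NT alone (-0.56). In D11 the values were 1382, 1879 and 1770 in NT, 2497, 2208 and 1837 in NC, against 1416, 1256 and 1137 in siDicer, so that siDicer replicate 1 exceeded NT replicate 1. The D11 log2 change of -0.58 (SE 0.16, limma adjusted p 0.0181) lay just short of the fold limit of 0.585 and was not called. It was called against NC alone (-0.77), with GC content and length trends removed (-0.70), and without NT replicate 1, 2 or 3 (-0.68, -0.59 and -0.60), NC replicate 3 (-0.59) or siDicer replicate 1 (-0.67).

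ITGA3, the abundant laminin-332 and laminin-511 receptor chain, ranged from 22309 to 46275 over the TPC1 control libraries and from 25102 to 37246 in siDicer. The D11 ranges were 22986 to 37202 and 25751 to 31693. The ranges overlapped, with log2 changes of -0.11 (SE 0.21) and -0.01 (SE 0.16) that were not called. The D11 sign turned with TMM and RLE scaling (0.03 in each).

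RGD-binding chains followed. ITGAV (chromosome 2, 186590010 to 186680901, plus strand), the shared chain of the vitronectin receptors, was at 3303, 3994 and 2975 in TPC1 NT, 4487, 3701 and 3568 in NC, against 7661, 4156 and 6254 in siDicer. Replicate 2 of siDicer thus lay below NC replicate 1. The D11 libraries held 2065, 3198 and 2605 in NT, 4450, 3300 and 3296 in NC, against 6929, 4531 and 5167 in siDicer, without overlap. The log2 change was 0.68 (SE 0.18, limma adjusted p 0.0281) in TPC1 and 0.83 (SE 0.20, limma adjusted p 0.0110) in D11.

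The ITGAV call depended on single libraries. In TPC1 it was lost without siDicer replicate 1 (0.49) or 3 (0.63), NT replicate 1 (0.65) or 3 (0.62), or NC replicate 3 (0.68), and against NT alone (0.78) or NC alone (0.58). The D11 call ended against NC alone (0.58), and also when siDicer replicate 1 was left out (0.66). In both lines siDicer replicate 2 held the lowest ITGAV of the siDicer libraries and the highest DICER1 (395 in TPC1 and 451 in D11). The part of the remaining DICER1 in this value was not tested.

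ITGA5, which forms the classical fibronectin receptor with beta1, ranged from 6207 to 11512 in TPC1 controls, with siDicer at 9828, 11271 and 10123. In D11 the controls were at 4219 to 8476 and siDicer at 8531, 7926 and 9727. The changes of 0.37 (SE 0.16) and 0.46 (SE 0.17, limma adjusted p 0.0638) were not called. Against NT alone the D11 value was 0.62 and called. As a share of the summed alpha chain level per kb, the measured RGD-binding chains ITGA5 and ITGAV together went from 25.6% in TPC1 controls to 34.0% in siDicer, and from 22.2% to 30.2% in D11. The laminin-binding chains ITGA3 and ITGA6 went from 69.9% to 62.4% and from 73.1% to 66.2%. The single-library ranges overlapped in both lines. NT and NC already differed without overlap. The RGD-binding share was 21.6% (20.2% to 22.3%) in TPC1 NT and 29.6% (29.4% to 29.96%) in NC, beside 28.2% to 37.5% in siDicer. In D11 it was 19.3% in NT (19.0% to 19.7%), 25.1% in NC (23.3% to 26.7%) and 26.3% to 33.7% in siDicer. These shares were not tested.

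**Figure D3:**
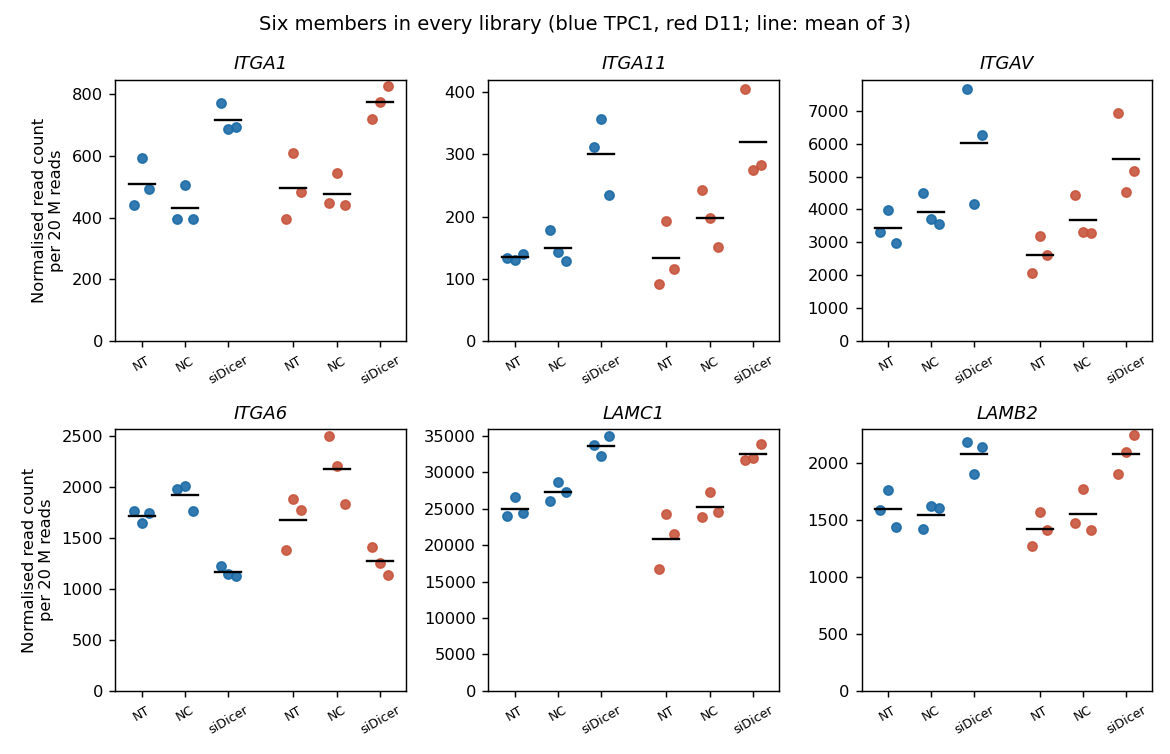
Normalised read count per 20 M reads of ITGA1, ITGA11, ITGAV, ITGA6, LAMC1 and LAMB2 in each of the 18 libraries, TPC1 in blue and D11 in red, with a line at the mean of each group of 3. ITGA1, ITGA11, LAMC1 and LAMB2 lie above all controls in both lines, ITGAV does so in D11 and ITGA6 lies below all controls in TPC1.

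Among alpha chains of leukocyte integrins, only ITGAE and ITGAX were measured. ITGAE was lower in all 3 D11 siDicer libraries (404, 365 and 283) than in all controls (406 to 543), a difference of -0.37 on the log2 scale (SE 0.13, limma adjusted p 0.0639), which is no call. In TPC1 it was -0.18 (SE 0.11). ITGAX ranged from 22 to 276 in TPC1 controls, and its changes of -0.52 and -0.45 carried standard errors of 0.70 and 0.43. Of the 6 leukocyte markers, CD68 averaged 1098 and LCP1 85 over the 18 libraries, while PTPRC, the pan-leukocyte marker, was at 0 to 4 in every library.

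The beta chains gave no call against the pooled controls in the main fits. ITGB1 was at 22540 to 28039 in TPC1 controls and 24954 to 26418 in siDicer, and at 18651 to 27756 and 26112 to 27401 in D11. ITGB5, a vitronectin receptor chain, had in D11 controls 3968 to 6016 and in siDicer 6396, 7178 and 8101, without overlap. Its D11 log2 change was 0.49 (SE 0.15, limma adjusted p 0.0327), under the fold limit, and the TPC1 change was 0.43 (SE 0.21, limma adjusted p 0.186). ITGB3 changed by 0.24 (SE 0.18) and 0.47 (SE 0.27) and was not called. ITGB7 (7 to 26 over all libraries) and ITGB2 (35 to 171) had changes within their standard errors in both lines.

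ITGB6 and ITGB8, the beta chains of the receptors that activate latent TGF-beta, differed between the NT and NC libraries that make up the control group. ITGB8 was at 67, 134 and 98 in TPC1 NT, 185, 237 and 235 in NC, against 204, 258 and 223 in siDicer. The NC and siDicer libraries overlapped and all lay above NT. D11 had 41, 104 and 81 in NT, 93, 386 and 285 in NC, against 120, 300 and 294 in siDicer. There NC replicate 1 lay below NT replicate 2.

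Against NT alone, ITGB8 was called higher in siDicer in both lines, with log2 changes of 1.24 in TPC1 and 1.63 in D11. Against NC alone, its changes were 0.06 and 0.02, neither called. Against the pooled controls they were 0.65 (SE 0.36) and 0.82 (SE 0.58), and neither was called. These 3 contrasts share the siDicer libraries.

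ITGB6 was a low gene, lowest on average in NT in both lines. In D11 it was at 0, 0 and 2 in NT, 16, 13 and 11 in NC, against 43, 18 and 20 in siDicer, and in TPC1 at 11, 2 and 6 in NT, 18, 9 and 22 in NC, against 44, 18 and 35 in siDicer. D11 NT held 1 ITGB6 read in 44.3 M. The D11 siDicer libraries, with 61 reads in 46.1 M, gave a ratio of 58.6 to NT with a 95% exact interval of 10.1 to 2352 that covers counting error only. Against the pooled controls the fitted log2 changes, which depend on the pseudocount at such counts, were 1.62 (SE 0.58, limma adjusted p 0.0836) in TPC1 and 2.52 (SE 0.91, limma adjusted p 0.0654) in D11. They were called with voom on recovered reads (1.87 and 2.82) and against NT alone (2.31 and 4.17), and in D11 with a pseudocount of 10 (1.17), in a fit of all 18 libraries (2.52) and without NC replicate 1 (2.90) or 2 (2.85). With the replicate number as a block, the change was called in TPC1 and not in D11. Against NC alone the changes in TPC1 and D11 were 0.94 and 0.87 and not called. Against NT alone, ITGB6 entered the test in either line only through the siDicer libraries, where it was high. Those calls against NT alone therefore add nothing to the reads themselves.

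**Figure D4:**
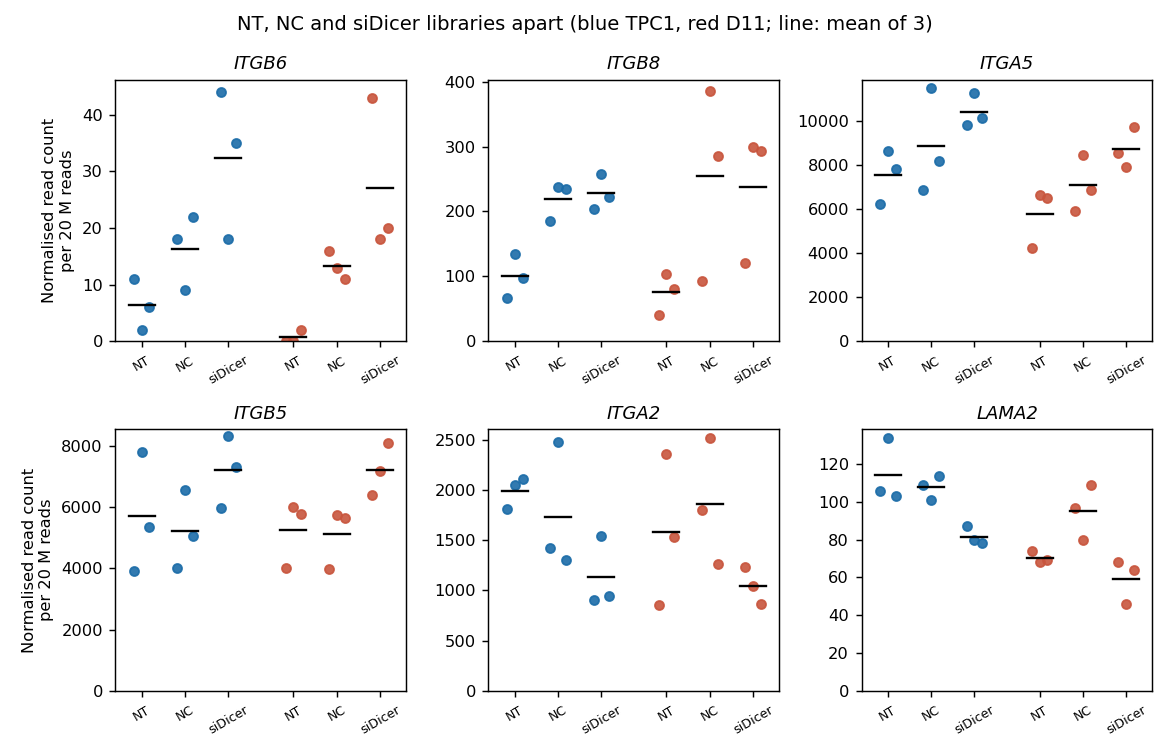
Normalised read count per 20 M reads of ITGB6, ITGB8, ITGA5, ITGB5, ITGA2 and LAMA2 in the NT, NC and siDicer libraries of TPC1 (blue) and D11 (red), with a line at the mean of each group of 3. ITGB8 lies at similar levels in NC and siDicer, and ITGB6 is lowest in NT, at 0, 0 and 2 in D11.

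The laminin chains were examined by position in the trimer. The gamma chain LAMC1 (chromosome 1, 183023420 to 183145592, plus strand), present in most laminins, was at 23946, 26611 and 24378 in TPC1 NT, 26043, 28727 and 27255 in NC, against 33726, 32254 and 34973 in siDicer. The D11 values were 16757, 24207 and 21554 in NT, 23800, 27249 and 24575 in NC, against 31672, 31969 and 33913 in siDicer. No control library reached a siDicer library in either line. The log2 change was 0.37 (SE 0.08, limma adjusted p 0.0121) in TPC1 and 0.51 (SE 0.13, limma adjusted p 0.0127) in D11, below the fold limit. The D11 value reached a call against NT alone (0.66). With GC content and length trends removed the values were 0.22 and 0.30. Over all settings the highest limma adjusted p of LAMC1 was 0.0839 in TPC1 and 0.0676 in D11.

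LAMB2, the beta chain of laminin-521, followed LAMC1. It was at 1417 to 1761 in TPC1 controls and 2183, 1901 and 2139 in siDicer, and at 1272 to 1770 in D11 controls and 1902, 2095 and 2244 in siDicer. The groups did not overlap in either line. The changes were 0.40 (SE 0.09, limma adjusted p 0.0154) and 0.49 (SE 0.11, limma adjusted p 0.00722), again under the fold limit. Over all settings the LAMB2 change ran from 0.27 to 0.47 in TPC1 and from 0.38 to 0.56 in D11. The highest limma adjusted p was 0.0949 and 0.0547. LAMB1 changed by 0.11 (SE 0.14) and 0.20 (SE 0.12), and LAMB3, the beta chain of laminin-332, by -0.08 (SE 0.11) and -0.19 (SE 0.12), none of them called.

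Of the laminin alpha chains, LAMA2, best known from muscle, was at 101 to 134 in TPC1 controls and 87, 80 and 78 in siDicer, without overlap. Its log2 change was -0.44 (SE 0.13, limma adjusted p 0.0527), and in D11 -0.47 (SE 0.20, limma adjusted p 0.112). The D11 value was called with GC content and length trends removed (-0.71). LAMA5 changed by -0.45 (SE 0.32) and -0.55 (SE 0.34) and LAMA3 by -0.28 (SE 0.19) and -0.19 (SE 0.22), without a call. LAMA1, at 0 to 30 over all libraries, had fitted changes of 0.97 (SE 0.55) and 1.64 (SE 0.74) that were not called.

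Groups that did not overlap were counted over all members. In TPC1, 4 of the 25 measured members (16%) had every siDicer library above every control library, against 7.62% of genes tested, and 2 (8%) had every siDicer library below, against 9.91%. In D11 the shares were 7 members (28%) against 11% above, and 1 member (4%) against 14.1% below. LAMC1, ITGA11, LAMB2 and ITGA1 were free of overlap upward in both lines, and ITGB5, ITGB6 and ITGAV in D11.

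The negative control siRNA was then compared with no transfection. No member was called in TPC1 (0 of 25, against 0.111% of the 18008 genes tested) or in D11 (0 of 24, against 0.35% of 17992). An unadjusted limma p under 0.05 was reached by 2003 genes in TPC1 and 2447 in D11. ITGB8 was higher in NC by 1.17 (SE 0.25, limma adjusted p 0.146) in TPC1 and 1.62 (SE 0.50, limma adjusted p 0.219) in D11, and ITGB6 by 1.37 (SE 0.57) and 3.30 (SE 0.61, limma adjusted p 0.0687).

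The D11 libraries are paired by replicate number in the data, and with that number as a block both genes were called in D11, ITGB8 with a limma adjusted p of 0.00423 and ITGB6 with 0.0299, at the same log2 changes. ITGB6 reached 10 in none of the D11 NT libraries, so in this comparison it passed the filter on low values only through NC, where it was high, and its call is no support beyond the reads given here. Without the filter it was not called (limma adjusted p 0.124). The block moved the D11 calls over all genes from 27 higher and 36 lower to 195 and 120. It left the 3 D11 siDicer calls among the members as they were. Since NC reached 27 reads against 1 in NT, its ratio of 28.5 had a 95% exact interval of 4.69 to 1166, for counting error only. Of the members called with siDicer in either line, ITGA11 (0.61, SE 0.28), ITGAV (0.50, SE 0.17) and ITGA6 (0.38, SE 0.15) were also higher in D11 NC than in NT. ITGA1 was not (-0.04, SE 0.17), and none of these differences was called. In TPC1 the block called ITGB8 higher in NC than in NT (1.17) and ITGAX lower (-0.98).

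The clone was compared with its parent line over 12 control libraries in a fit that also held a term for transfection. No member was called, against 1.02% of the 18814 genes tested, of which 1853 had an unadjusted limma p under 0.05. LAMA2 had the smallest p of the members, at -0.44 on the log2 scale in D11 against TPC1 (SE 0.13, limma adjusted p 0.210), and by unadjusted p it was followed by LAMA3 (-0.38, SE 0.15), ITGB6 (-1.17, SE 0.48), ITGA5 (-0.35, SE 0.15), LAMC1 (-0.20, SE 0.08) and LAMA1 (-1.30, SE 0.59). No member was called in any setting of this comparison. DICER1 itself was called lower in D11 (-0.68, SE 0.12, limma adjusted p 0.00561).

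Whether siDicer acted differently in the lines was tested as an interaction over the 18 libraries. No member was called, against 0% of 19181 genes, while 133 genes had an unadjusted limma p under 0.05. The difference of D11 from TPC1 in the log2 change was 0.06 (SE 0.19) for ITGA1, -0.05 (SE 0.34) for ITGA11, 0.15 (SE 0.29) for ITGAV and 0.06 (SE 0.19) for ITGA6. The ITGA6 call in TPC1 and its absence in D11 are therefore no measured difference between the lines. DICER1 itself differed by 0.88 (SE 0.36), also without a call (limma adjusted p 1.00).

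Several members followed the replicate number. Replicate 2 was highest in all 6 groups for 6 of the 25 measured members (24%), LAMA5, LAMA3, ITGAX, ITGA3, ITGB3 and ITGB8, against 4.95% of 19181 genes. It was lowest in all 6 for ITGB2 alone (4%, against 3.45%). LAMA5 was at 2755, 5348 and 3185 in TPC1 NT, and at 1763, 5075 and 2088 in D11 NC. The labels do not say what a replicate number marks, and none of these 7 genes was called against the pooled controls, between NC and NT without a block, or between the lines.

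**Figure D5:**
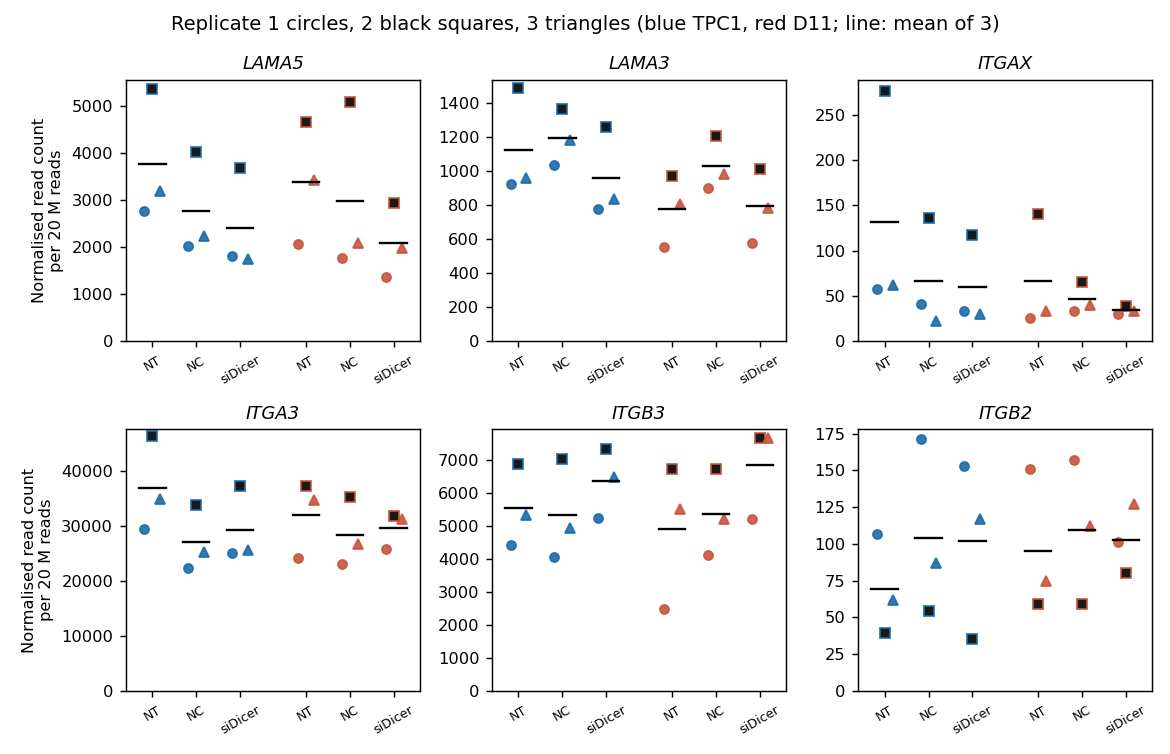
Normalised read count per 20 M reads of LAMA5, LAMA3, ITGAX, ITGA3, ITGB3 and ITGB2 in each library, with replicate 1 as circles, replicate 2 as black squares and replicate 3 as triangles (TPC1 outlined in blue, D11 in red). The black square is the highest of its group in all 6 groups for the first 5 genes and the lowest for ITGB2.

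The other genes of integrin adhesion were taken from 4 lists, with the same call rule, under which 3.22% of all genes were called higher in TPC1 and 5.26% in D11. Of 23 tested adaptor and signalling genes, 4 were called higher in each line and none lower, with medians of 0.23 in TPC1 and 0.29 in D11. They were VCL and LIMS1, which join integrins to actin, and the tensins TNS1 and TNS3. VCL was at 11868 to 12611 in TPC1 controls and 20602, 16738 and 20177 in siDicer, which differed by 0.66 on the log2 scale (SE 0.08, limma adjusted p 0.000965). In D11 the VCL change was 0.73 (SE 0.11) and that of TNS3 1.03 (SE 0.14). ILK, the scaffold kinase beside them, was higher by 0.53 and 0.45 (limma adjusted p 0.00396 and 0.00348), under the fold limit.

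Of 12 basement membrane and laminin receptor genes, 4 were called higher in TPC1 and 5 in D11, none lower, with medians of 0.54 and 0.62. COL4A1, a chain of the collagen IV that alpha1 binds, changed by 1.20 (SE 0.29, limma adjusted p 0.0207) in TPC1 and 1.34 (SE 0.22, limma adjusted p 0.00146) in D11. COL4A2 changed by 0.71 and 0.76 and NTN4, a laminin-binding netrin, by 0.88 and 0.84, all called. COL4A5 was called in both lines and NID2 in D11.

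Of the other integrin ligands, 3 of 13 tested were called higher in TPC1 (TNC, VTN and FBN1) and 5 of 12 in D11, with EDIL3 and FN1 in addition. None was called lower. TNC was at 1097 to 3806 in TPC1 controls and 6235, 6350 and 7898 in siDicer, higher by 1.63 on the log2 scale (SE 0.35, limma adjusted p 0.0127). VTN was near 11 in the controls and at 24 to 31 in TPC1 siDicer. Of 5 hemidesmosome partners, among them PLEC and DST, none was called in either line.

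Fibroblast markers are given beside ITGA11 and the matrix genes. Of 5 markers, PDGFRB and COL1A1 were measured, while COL1A2, COL3A1 and DCN were at 0 to 2 in every library. The summed list was at 92 to 120 in TPC1 controls and 112 to 279 in siDicer, and at 53 to 133 and 149 to 239 in D11. PDGFRB was called higher, by 1.82 (SE 0.55) in TPC1 and 1.60 (SE 0.31) in D11. The part of these genes in the other changes was not tested.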

How the data were processed

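RNA was sequenced after preparation with a stranded mRNA kit. Per the study's methods and the submitters' processing notes, the authors mapped read pairs to GRCh38 (STAR 2.5.3a), counted genes of Ensembl release 90 (HTSeq 0.9.1), and scaled the libraries to 20 M reads. The deposited table holds 58302 genes in 18 columns of a normalised score, the scaled count rounded up to a whole number, and not raw counts. The authors' edgeR test, which needs raw counts, was therefore not used. Every column was tied to a sample (0 were not), and no column of the authors' own comparisons was used. Steps between low values gave depths of 11.3 to 23.2 M reads (median 15.9 M). In the 16 libraries where 1 read was worth more than 1, 99.4% to 99.9% of values equalled a whole number of reads exactly, once scaled and rounded up. In the other 2 the rounding hides single reads.

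Tests were run on log2(value + 1), a scale that understates the change of low genes, for genes at 10 or more in at least 3 libraries of a fit. The model was limma 3.58.1 (R 4.3.3) with a mean-variance trend. P-values were adjusted by Benjamini-Hochberg over all genes of the fit, and calls needed a value under 0.05 together with a fold change of 1.5 or more. The fit was tested on simulated data.

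Members, gene lists, miRNA families and tests were chosen with earlier results of these data known. All 35 members are accounted for, with values per library for those called in a comparison and the abundant ones of a class. Of each list, counts are given, and values for at most the 3 genes with the smallest adjusted p in D11 siDicer. Per-library values of other members, and LIMS1, TNS1, COL4A5, NID2, FN1, FBN1 and KRT7, were added after their values were seen. Some items are not reported here. GENCODE release 44 (GRCh38) gave positions and UTRs, and RefSeq the miRNAs. Whether counting used strand is not given in the sources used here, so genes that overlap others are uncertain. Of the measured members, all but ITGA11, ITGA3 and LAMB2 overlap another annotated gene.

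Replicate numbers were checked by correlating deviations from the group means. In D11 all 9 correlations between libraries of 1 number passed 0.1 (0.106 to 0.473), and in TPC1 7 of 9 did (0.086 to 0.509). Between libraries of different numbers it was 3 of 18 in either line. The numbers were taken as pairing the libraries of a line. The main fits held no term for them, and the replicate block is given as an alternative. This rests on the data alone, not on a label. Alternatives were other pseudocounts, no filter, TMM and RLE scaling, voom on recovered reads, NT or NC alone, a replicate block, all 18 libraries in 1 fit, and leaving out each library. Removal of GC content and length trends, and a block shared by both lines, were chosen after seeing the data.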

Additional observations from a re-analysis of the deposited data

Results flagged for a closer look

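Within the 6 control libraries of each line, a library was singled out when its gap to the nearest other, as a share of the whole range, was above the 95% critical value of Dixon's test. Of 50 such groups (25 measured members in 2 lines) 3 met this, and chance flags about 1 in 20. ITGA11 in TPC1 NC replicate 1 was at 178, while the other TPC1 control libraries lay at 128 to 143. ITGAE in D11 NT replicate 1 was at 543, above the others at 406 to 450. ITGAX in D11 NT replicate 2 was at 140, above the others at 25 to 65. Without the first of these libraries the TPC1 log2 change of ITGA11 was 1.13 and still called. ITGAE and ITGAX were called in no siDicer comparison, nor with any library left out.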

How the results depend on the processing

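Leaving out each library in turn left 2 to 5 members called with siDicer in either line (from 4 in TPC1 and 3 in D11) and 0 to 0 in the other 4 comparisons. In D11 siDicer, 5 were called with GC content and length trends removed and 7 against NT alone. ITGB6 was among the 7, and passed the filter there only through siDicer. In D11 NC against NT, 1 was called with voom on recovered reads, 2 with the replicate block and 1 in a fit of all 18 libraries. ITGB6 was among them each time, and except in that last fit it passed the filter only through NC. In TPC1, 7 of 9 correlations between libraries of 1 number passed 0.1, with a range of 0.086 to 0.509. These libraries thus follow the number too, though the main fits held no block in either line. There the replicate block gave 2 calls in NC against NT (ITGB8 at 1.17 and ITGAX at -0.98) and 6 in siDicer, adding ITGA2 and ITGB6. Beyond those given, the block changed no call among the members. Over all genes, TPC1 siDicer gave 594 higher and 769 lower calls, and without siDicer replicate 1, 2 or 3 it gave 159 and 287, 844 and 1250, or 168 and 259. D11 siDicer gave 969 and 1243, and 592 and 782 without siDicer replicate 3. TPC1 NC against NT went from 6 and 14 to 3 and 10 without the filter, 7 and 24 with trends removed, 300 and 265 with the block and 65 and 81 in 1 fit of all libraries, and to between 0 and 0 and 20 and 35 without a library. D11 NC against NT went from 27 and 36 to 2 and 6 without the filter, 195 and 120 with the block and 111 and 91 in 1 fit of all libraries, and to between 0 and 0 and 46 and 55 without a library. D11 against TPC1 went from 27 and 164 to 67 and 318 with a block shared by both lines, 6 and 41 in NT alone and 4 and 37 in NC alone. The causes were not tested.

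Signs turned for changes that were not called. In TPC1 siDicer these were ITGA3 against NC alone (0.11), ITGB1 with TMM scaling (0.054), RLE scaling (0.034), trends removed (0.053) and NT alone (0.066), ITGB2 against NC alone (-0.12) and LAMB1 with trends removed (-1.8e-04). In D11 they were ITGA3 with TMM (0.033), RLE (0.034) and NC alone (0.080), ITGB1 and ITGB2 against NC alone (-0.027 and -0.0062), ITGB7 with TMM (0.010), RLE (0.012), voom (0.030), trends removed (0.0019) and NT alone (0.10), and LAMA3 against NT alone (0.026). In the interaction they were ITGA1 with trends removed (-0.063) and NC alone (-0.041), ITGA6 likewise (-0.017 and -0.055), ITGAV against NC alone (-0.0013) and ITGA11 against NT alone (0.18). Leaving out each library gave ranges across 0 in TPC1 for ITGA3 (-0.30 to 0.0043), ITGB1 (-0.050 to 0.013), ITGB2 (-0.26 to 0.79) and ITGB7 (-0.47 to 0.15), in D11 for ITGA3 (-0.080 to 0.089), ITGB2 (-0.066 to 0.26), ITGB7 (-0.34 to 0.16) and LAMA3 (-0.39 to 0.021), and in the interaction for ITGA1 (-0.011 to 0.13), ITGA11 (-0.23 to 0.078), ITGAV (-0.10 to 0.34) and ITGA6 (-0.035 to 0.14).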
